A study of Triticum aestivum with 3 samples.

Results

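Bread wheat is a hexaploid with 3 related subgenomes, A, B and D, so most of its genes are present as a set of homeologs, 1 on each subgenome. A homeologous triplet was taken here as a small RNA together with at least 1 listed transcript on the A, the B and the D chromosome of the same group (1 to 7) and the same arm (S for short, L for long), as read from the transcript identifiers. By this rule 943 triplets were found, which held 4333 of the 12450 pairs of a small RNA and a transcript in the tables, 517 of 1233 small RNAs and 2641 of 7483 transcripts. Where a subgenome had several transcripts, the one with most reads stood for it, which applied to the 420 triplets with more than 3 pairs, while 523 triplets had exactly 3. Related small RNAs were often listed with the same transcripts and the same or nearly the same reads, and such triplets were merged, which left 628 distinct triplets. The identifiers are those of an older wheat gene set, no annotation of them was used here, and whether the 3 transcripts of a triplet are homeologs was not tested beyond chromosome and arm.

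The degradome was sequenced from leaves of wheat seedlings after 2 days under 1 of 3 treatments. These were an untreated control, dithiothreitol (DTT), a thiol reductant that disturbs disulphide bond formation in the endoplasmic reticulum, and DTT given together with tauroursodeoxycholic acid (DTT+TUDCA), a bile acid that helps proteins fold. Each treatment had 3 independent biological replicates, 9 libraries in all, and no genotype, cultivar or dose is given in the labels. Library reads lay between 11253643 and 13006162. In whole leaves, fewer cells of a type and less RNA per cell cannot be told apart.

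In plants, a microRNA pairs with a nearly complementary site in a transcript, and an Argonaute protein cuts the transcript there. The downstream fragment carries a 5′ monophosphate, and degradome sequencing reads the 5′ ends of such fragments. Homeologs of wheat are often so alike that a short read fits all 3 of them, and a read of 36 nt can tell them apart only where they differ within it. Whether a read came from slicing was not tested here.

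The triplets were shallow. The strongest transcript of a distinct triplet held a median of 6 raw reads over the 9 libraries, 248 triplets held at most 3, and 138 held at least 20. The 15 strongest triplets held 53.4% of the 18966 reads on strongest transcripts. The number of distinct triplets with at least 1 read was 276.3 ± 9.81 (SD, n = 3) in control libraries, 303.3 ± 27.0 under DTT and 340.3 ± 14.2 under DTT+TUDCA. The control libraries held between 265 and 282 of them and the DTT+TUDCA libraries between 324 and 349, so that these groups did not overlap, while the DTT libraries, at 274 to 327, overlapped both. The 3221 signals outside triplets (a signal being lines merged where their counts differed by at most 20%) had the same order. Of them 749 to 841 held a read in control, 734 to 949 under DTT and 938 to 1042 under DTT+TUDCA, so the difference was not particular to triplets. Reads on strongest transcripts moved with these numbers, at 1312 to 1568 per 10M library reads in control, 1155 to 2101 under DTT and 1689 to 2101 under DTT+TUDCA, and their part in the counts of triplets was not tested. DTT replicate 3 was the lowest library by this measure, and DTT replicate 1 and DTT+TUDCA replicate 3 were the highest.

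The first question was how far the 3 transcripts of a triplet share their reads. In 327 of 628 distinct triplets (52.1%) the raw counts were identical on A, B and D in every library, and in 338 (53.8%) each pair differed by at most 20%, taken as the summed difference over the 9 libraries against the larger total. Among the 138 triplets with at least 20 reads these numbers were 49 (35.5%) and 56 (40.6%). The tables do not give the reads themselves, so identical counts were taken as the same reads. The rule for a triplet needs a listed transcript on each subgenome, and homeologs listed on fewer subgenomes were left out. These percentages are raised by that rule and are not shares of all homeologs. Identical counts were found in 176 of the 248 triplets with at most 3 reads (71.0%) and in 102 of the 242 with 4 to 19 reads (42.1%).

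The microRNA miR160, which targets ARF transcription factors of the auxin response in Arabidopsis and other plants, gave both of the strongest triplets. On 1L, tae-miR160 held 249, 270 and 265 raw reads in the control libraries, 329, 222 and 127 under DTT, and 219, 451 and 465 under DTT+TUDCA, and each of these values was the same on Traes_1AL_147CF243C, Traes_1BL_54CD82AC3 and Traes_1DL_AEC2F3FB3. The DTT+TUDCA libraries were the most spread, with the lowest below every control library and the others above all of them. On 7L the A transcript, Traes_7AL_E3ADC8C38, held 143, 142 and 170 reads in control, 175, 221 and 80 under DTT, and 87, 188 and 206 under DTT+TUDCA. The B and D transcripts of 7L differed from it by 1 read in control replicates 1 and 2 and by none elsewhere, and all 3 treatments overlapped.

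The normalized number of reads gave the second measure of sharing. It equals the raw number divided by at least 1, and a divisor of 3 is what a read would get that was shared over 3 places, although the file headers do not define it. All 3 transcripts of miR160 on 1L had 2597 raw and 865.7 normalized reads, a divisor of 3. Over all triplets there were 2166 sets of transcripts with the same counts, and 785 of them lay on A, B and D together. Of these 785, 589 (75.0%) had a divisor of 3 within a tolerance of 0.001, while a divisor of 1 was found in none. Of the 169 sets on A and D alone, 98 (58.0%) had a divisor of 2 and 44 (26.0%) a divisor of 3. The other pairs had a divisor of 3 more often than of 2. Of 77 sets on A and B, 28 (36.4%) had a divisor of 2 and 32 (41.6%) of 3. Of 181 sets on B and D, these were 51 (28.2%) and 67 (37.0%). Sets that lay on 1 subgenome had a divisor of 1 in 30.8% of 377 on A, 39.4% of 297 on B and 36.1% of 280 on D, so that most sets on a single subgenome were also divided.

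miR160 also had a triplet that was not shared. On 2L the B transcript, Traes_2BL_95ECD7C24, held 8, 13 and 30 raw reads in control, 5, 14 and 1 under DTT, and 4, 9 and 12 under DTT+TUDCA. The A and D transcripts of 2L held the same 15 reads in all, 5 of them in control replicate 1, against 96 on B. B had the higher count in each of the 9 libraries. Its raw and normalized reads were equal at 96, whereas the reads of A and D were divided by 2, to 7.5. Over the 63 triplets of miR160 names, 15 were distinct and 5 of these were identical on A, B and D. The other triplets of the family were weak, with the hairpin-derived tae-MIR160-p3 on 4S at 1, 1 and 32 reads on A, B and D (also 1 on A with the exchanged arm of 4A, described below) and csi-miR160c-5p_L+1R-1 on 1L at 31 on each.

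**Figure D1:**
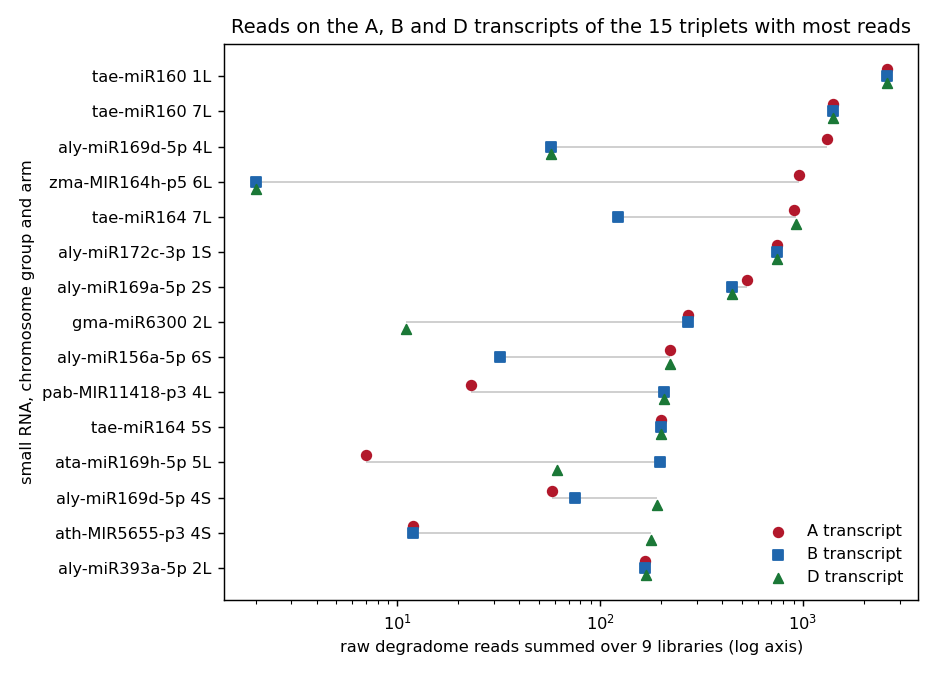
Raw degradome reads, summed over 9 libraries and on a log axis, on the A (circle), B (square) and D (triangle) transcripts of the 15 distinct triplets with most reads, named by small RNA (without its variant suffix), chromosome group and arm. The 3 symbols coincide for tae-miR160 on 1L at 2597 reads and stand farthest apart for zma-MIR164h-p5 on 6L, at 961, 2 and 2.

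Other strong triplets fell into the same classes. aly-miR172c-3p on 1S held 746 reads on each of the 3 transcripts, tae-miR164 on 5S held 199 on each, and aly-miR393a-5p_1ss16TC on 2L held 167, 167 and 168 on A, B and D. These families are known to target AP2-type factors, NAC factors and the auxin receptors TIR1 and AFB. Pairs of subgenomes shared reads in others. tae-miR164 on 7L held 909 reads on A and 925 on D but 123 on B, aly-miR156a-5p_R+1_1ss20CT on 6S (a family that targets SPL factors) held 222 on A and on D but 32 on B, and gma-miR6300_L-1R+1 on 2L held 272 on A and on B but 11 on D. In tae-miR164 on 7L the B transcript held 5 to 16 reads in control libraries, 7 to 16 under DTT and 10 to 28 under DTT+TUDCA, each time below the A transcript of that library.

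Among the 138 triplets with at least 20 reads, 25 had 3 transcripts that all differed by more than 20%, with A highest in 10, B in 7 and D in 8. A and D were alike in 23, with B lower in 15 and higher in 8. B and D were alike in 24, with A lower in 13 and higher in 11, and A and B were alike in 10, with D lower in 5 and higher in 5. These numbers are a description of the tables.

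**Figure D2:**
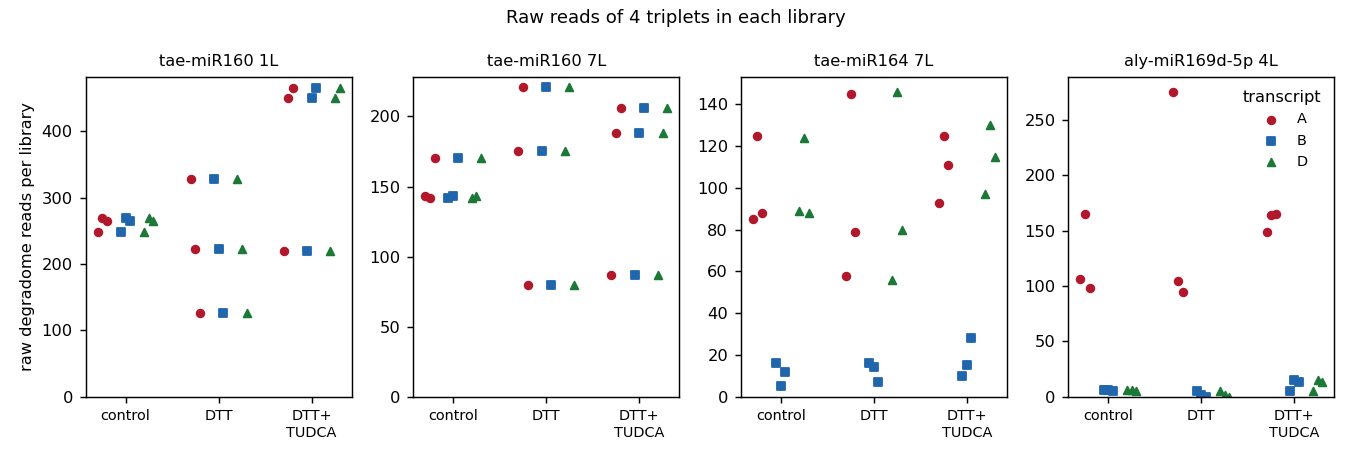
Raw degradome reads in each of the 3 libraries per treatment on the A (circle), B (square) and D (triangle) transcripts of 4 triplets, each panel with its own axis from 0. The 3 transcripts of tae-miR160 on 1L and 7L lie at the same or nearly the same values, B lies below A and D for tae-miR164 on 7L, and A lies above B and D for aly-miR169d-5p on 4L in all 9 libraries.

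Sharing differed between chromosome arms. Identical counts were found in 21 of 27 distinct triplets on 1S (77.8%), in 23 of 34 on 5S (67.6%) and in 38 of 95 on 5L (40.0%), but in 1 of 30 on 4L (3.33%) and 0 of 20 on 4S. Group 3 had no triplet, because the identifiers of chromosome 3B give no arm. It is known of wheat that chromosome 4A was rearranged by an inversion around its centromere and by exchanges with 5A and 7B, so that much of the present 4A short arm corresponds to the long arms of 4B and 4D and the other way round. When the arms of 4A were exchanged, a comparison chosen after the values had been seen, 27 of 48 triplets of 4AS, 4BL and 4DL (56.3%) and 34 of 54 of 4AL, 4BS and 4DS (63.0%) were identical. Together these were 61 of 102 (59.8%), against 1 of 50 (2.0%) with the arms as labelled and 326 of 578 (56.4%) in groups 1, 2, 5, 6 and 7. For the named triplets of group 4, the count of the exchanged 4A arm is given beside that of the labelled one. With 3B placed on either arm, 37 of 74 triplets of 3L and 18 of 39 of 3S were identical.

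Single transcripts showed the same pairing. gra-miR172b held 42 reads on each of Traes_4AS_6D7CDA716, Traes_4BL_3AA55AD10 and Traes_4DL_350C0974E, and ath-miR847_L-2 held 42 on each of Traes_4AL_CF6130092, Traes_4BS_4AD56C4F8 and Traes_4DS_29B7D0F80. Not all transcripts matched with the arms exchanged. aly-miR169d-5p_L-1 held 1322 reads on Traes_4AL_7C4C68FD0, against 75 on 4BS and 190 on 4DS, and these differed by more than 20%. Its transcripts on 4AS, 4BL and 4DL had near-equal totals of 58, 57 and 57, but the reads of 4AS were not those of 4BL and 4DL. The 4AS transcript held 7, 6 and 9 in control, 7, 5 and 3 under DTT and 6, 8 and 7 under DTT+TUDCA, with 56.7 normalized reads, while 4BL and 4DL held the same 5 or 6 in each control library, 0 to 5 under DTT and 5 to 15 under DTT+TUDCA, with 28.2 normalized reads. The family targets NF-YA subunits of a CCAAT-binding factor in Arabidopsis. Other translocated pairings were less alike, with 12 of 60 triplets identical for 4AL, 5BL and 5DL, 1 of 42 for 5AL, 4BL and 4DL, and 5 of 35 for 7AS, 4AL and 7DS.

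**Figure D3:**
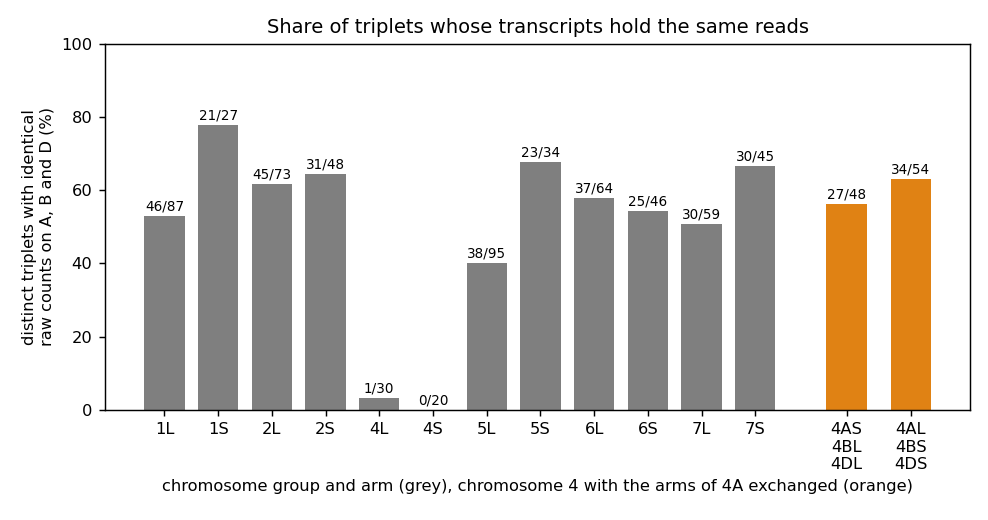
Percentage of distinct triplets whose raw counts were identical on A, B and D in all 9 libraries, by chromosome group and arm (grey bars) and for group 4 with the arms of 4A exchanged (orange bars), with the number identical over the number of triplets above each bar. The bars of 4L and 4S stand at 1 of 30 and 0 of 20, and those with the arms exchanged at 27 of 48 and 34 of 54.

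Unequal triplets were then tested over all 9 libraries. The edgeR quasi-likelihood test took A, B and D as 3 values within each library. It entered triplets with at least 20 reads on the strongest transcript and counts that were not identical. Of the 138 triplets with at least 20 reads, 49 had identical counts and stayed out. Of the 89 triplets tested, 67 (75.3%) had unequal reads at an adjusted p under 0.05. This percentage is raised by the entry rule and is not a share of all 138. A alone was highest in 17 of them, B alone in 14 and D alone in 10. A alone was lowest, with the other two equal, in 11, B in 11 and D in 4. The ratio of the strongest to the weakest transcript had a median of 13.5 and ran from 1.81 to 480.5. Reads that lie on a pair of transcripts enter this test more than once, so its p-values are too small, and the transcript with most reads was chosen on the same counts. The 18 triplets of group 4 with at least 20 reads entered as labelled, and 0 of them were within 20%. With the arms of 4A exchanged 6 of 18 were. The counts of unequal triplets and of leading subgenomes were not repeated without group 4.

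The A-heavy triplets were led by zma-MIR164h-p5_2ss4CG17CG_1 on 6L and aly-miR169d-5p_L-1 on 4L. The first had 961 reads on Traes_6AL_2E1CB2A66 and 2 each on its B and D transcripts (edgeR, adjusted p = 2.26e-17), and the second had 1322 against 57 and 57 (edgeR, adjusted p = 9.17e-14), where B and D are the 4L transcripts of the labelled pairing. B led for osa-MIR5083-p3_1ss19GT on 5L with 1, 100 and 1 reads on A, B and D (edgeR, adjusted p = 1.55e-11), PC-3p-846791_2 on 7L with 2, 133 and 3, osa-miR167d-5p_L-4R+1 on 5L with 2, 152 and 8, and ath-MIR5655-p3_2ss15AC17GT on 6L with 1, 61 and 1. D led for atr-MIR8606-p5_2ss15TG18AG on 1L with 3, 1 and 130 (edgeR, adjusted p = 6.98e-12), tae-MIR160-p3 on 4S, gra-MIR482d-p5_2ss16AT18AT on 7S with 3, 3 and 56, and aly-miR161-5p.2_R-3 on 7S with 4, 4 and 76. Further A-heavy triplets were osa-MIR1858b-p3_2ss13GT17GC on 2L with 38, 1 and 1 and ath-miR847_L-2 on 6L with 22, 1 and 1. These leads are in raw reads. The leading reads had a divisor of 1 for aly-miR169d-5p_L-1 and osa-miR167d-5p_L-4R+1, 2.00 for zma-MIR164h-p5 and 2.85 for osa-MIR1858b-p3. It was 7 for osa-MIR5083-p3, 4 for aly-miR161-5p.2_R-3 and 3 for the others named here. A family number in such a name does not show that the small RNA has that family's targets.

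The leading subgenome was the same in all 3 treatments in 66 of the 67 unequal triplets. In 26 of them the strongest transcript exceeded the weakest in each of the 9 libraries, and in 50 it was at or above it in each. These 67 triplets were called unequal on the same 9 libraries, which favours such agreement. The counts describe the called triplets and are not a separate test of stability between treatments. Between single subgenomes, A and B differed in 53 of the 89 triplets, with A higher in 28 and B in 25. A and D differed in 42, with each higher in 21, and B and D in 38, with B higher in 18 and D in 20. Among the strongest triplets of group 4, 3 more were unequal as labelled. pab-MIR11418-p3_2ss11GT18TG on 4L had 23 reads on A against 207 on B and on D, and with the exchanged arm its 4AS transcript had 8. aly-miR169d-5p_L-1 on 4S had 58, 75 and 190 on A, B and D, and with the exchanged arm 1322 in place of 58, so that A and not D was highest. ath-MIR5655-p3_2ss15AC17GT on 4S had 12, 12 and 178, and with the exchanged arm 11 in place of the first 12. Its normalized reads were 3, 3 and 17.97, a smaller difference than in the raw reads, since the D reads had a divisor of 9.90 and those of A and B a divisor of 4. ata-miR169h-5p_R-2 on 5L had 7, 197 and 61.

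The subgenomes were next compared by their share of the normalized reads of all distinct triplets. A held 38.5%, 40.5% and 38.5% in the control libraries, 46.5%, 41.0% and 42.3% under DTT, and 41.7%, 39.0% and 38.7% under DTT+TUDCA. Over the 9 libraries the means were 40.7% ± 2.59 (SD) for A, 29.1% ± 1.52 for B and 30.1% ± 1.53 for D. A was higher than B and higher than D in 9 of 9 libraries (exact sign-flip test, two-sided, p = 0.00390625 for each, the smallest it can give, adjusted p = 0.00586 over 3 pairs). B and D did not pass the test, with B higher in 4 of 9 libraries (exact sign-flip test, p = 0.113). All libraries hold the same triplets, so the sign-flip tests here and below measure how an order repeats between libraries, not its spread over triplets. Over the triplets tested singly, A was higher than B in 28 and lower in 25, and A and D were each higher in 21.

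A pair of triplets held most of this excess. Without aly-miR169d-5p_L-1 on 4L and zma-MIR164h-p5_2ss4CG17CG_1 on 6L, removed after their values had been seen, the shares were 34.2% for A, 32.4% for B and 33.4% for D. A then exceeded B by 1.85 percentage points, in 7 of 9 libraries (exact sign-flip test, adjusted p = 0.0469), and D by 0.759 points, in 5 of 9 (exact sign-flip test, adjusted p = 0.297). With every triplet of at least 20 reads given the same weight, the shares were 34.7%, 32.9% and 32.3%, and A was higher than B in 8 of 9 libraries and than D in 9 of 9 (exact sign-flip test, adjusted p = 0.0234 and 0.0117). Identical triplets give each subgenome the same raw reads, and among the triplets that differed by more than 20% the shares were 47.8% for A, 25.2% for B and 27.0% for D.

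The shares were set side by side for the treatments. A held 39.2% ± 1.14 (SD, n = 3) in control, 43.2% ± 2.90 under DTT and 39.8% ± 1.63 under DTT+TUDCA. B held 30.2% ± 1.54, 27.8% ± 0.775 and 29.5% ± 1.23, and D held 30.6% ± 0.440, 29.0% ± 2.30 and 30.8% ± 1.02. All 3 DTT libraries had a higher A share and a lower B share than all 3 control libraries, a difference of 4.09 points for A and -2.47 points for B (exact permutation test, two-sided, p = 0.1 for each, the smallest that 3 against 3 allows, adjusted p = 0.45 over 9 comparisons). The other 7 comparisons had unadjusted exact permutation p-values from 0.2 to 0.9. Without the same pair of triplets the A share under DTT was 1.57 points above control, and with equal weights 0.60 points. None of these differences passed the test, and 3 against 3 libraries cannot reach 0.05.

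**Figure D4:**
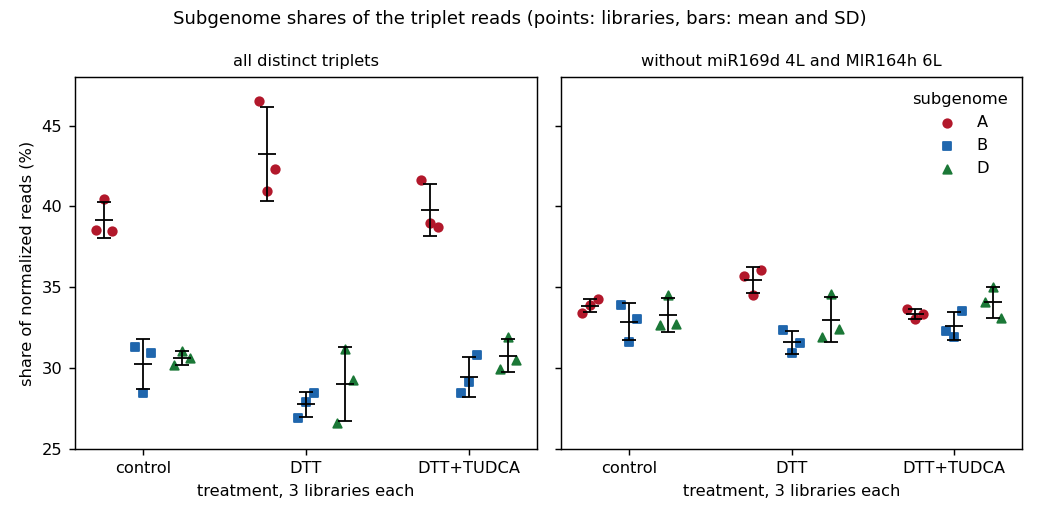
Share of normalized reads (%) on the A (circle), B (square) and D (triangle) transcripts in each of the 3 libraries per treatment, with mean and SD as bars, for all distinct triplets (left) and without aly-miR169d-5p on 4L and zma-MIR164h-p5 on 6L (right); the axis starts at 25%. On the left A lies above B and D in all 9 libraries, and on the right the subgenomes lie between 30.9% and 36.0%.

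Whether treatment changed the balance within a triplet was tested for the same 89 triplets as a treatment by subgenome term in edgeR. No triplet passed in DTT against control (0 of 89, 0%), in DTT+TUDCA against control (0 of 89) or in DTT+TUDCA against DTT (0 of 89). At an unadjusted p under 0.05 there were 3, 0 and 7 triplets. The lowest adjusted p of DTT against control (edgeR, 0.534) belonged to aly-miR169d-5p_L-1 on 4L. Its A transcript held 106, 165 and 98 reads in control, 275, 105 and 95 under DTT, and 149, 164 and 165 under DTT+TUDCA. Its B and D transcripts held the same reads, 6, 6 and 5 in control, 5, 2 and 0 under DTT, and 5, 15 and 13 under DTT+TUDCA. DTT replicate 1 was high on A alone, and the treatments overlapped on B and D.

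In DTT+TUDCA against DTT the lowest adjusted p (edgeR, 0.203) was that of aly-miR169a-5p_1ss21AT on 2S. Its A transcript, Traes_2AS_7C177F9DB, held 30, 61 and 52 reads in control, 102, 44 and 50 under DTT, and 57, 56 and 78 under DTT+TUDCA. The B transcript, Traes_2BS_A95B28510, held 36, 23 and 41, then 65, 33 and 38, then 49, 73 and 88, and D followed it within 2 reads in every library. B exceeded A in 2 of 3 DTT+TUDCA libraries and in no DTT library, and also in control replicate 1, at 36 against 30. The fitted change of the ratio of B to A was 0.66 on the log2 scale, and that of D to A was 0.69. Over all 9 libraries this triplet was not called unequal (edgeR, adjusted p = 0.175), at 530, 446 and 448 reads. Without DTT+TUDCA replicate 1 it was the 1 triplet called in this comparison (edgeR, adjusted p = 0.0224).

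Finally the amount of reads was compared between treatments. Lines with the same or nearly the same reads were merged into signals, which were all tested together. Of 4574 signals, 1353 held a line of a triplet, 497 of them on A, B and D alike. In DTT against control 72 triplet signals were tested and 1 was higher and 1 lower, against 3.21% called among all 156 signals tested. In DTT+TUDCA against control 6 of 75 were higher and 1 was lower, against 9.64% of all 166, and in DTT+TUDCA against DTT none of 88 passed, against 1.07% of all 187. In this last comparison 10 triplet signals had an unadjusted p under 0.05 in edgeR, and DESeq2 also called 0 at an adjusted p under 0.05. The shares of triplet signals called were thus near those of all signals. The median log2 differences of the triplet signals were 0.02, 0.32 and 0.30 in this order, and those of all signals -0.08, 0.30 and 0.26.

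2 of the 7 signals that passed were shared by A, B and D. ath-miR398b-3p_1ss20TG on 2S, of a family that targets copper/zinc superoxide dismutases in Arabidopsis, held 7, 5 and 2 reads on each of its transcripts in control, 19, 12 and 2 under DTT, and 11, 16 and 23 under DTT+TUDCA. All DTT+TUDCA libraries lay above all control libraries, and the DTT libraries overlapped both. It was higher under DTT+TUDCA than in control by 1.74 ± 0.54 (SE) on the log2 scale (edgeR, adjusted p = 0.0212). The call was not made with TMM scaling, with DESeq2, with no filter on low counts, or without control replicate 2 or 3 or DTT+TUDCA replicate 2 or 3 (edgeR or DESeq2, adjusted p from 0.0829 to 0.521).

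The other shared signal fell. har-miR403a_R-3 on 2L, of a family that targets AGO2 in Arabidopsis, held 11, 5 and 17 reads on each transcript in control, 0, 2 and 2 under DTT, and 3, 3 and 2 under DTT+TUDCA. Every treated library lay below every control library. The log2 difference was -3.02 ± 0.94 (SE) under DTT (edgeR, adjusted p = 0.0458) and -2.10 ± 0.71 under DTT+TUDCA (edgeR, adjusted p = 0.0421). With DESeq2 the adjusted p-values were 0.130 and 0.144, and both calls were also lost without control replicate 1 or 3, without any 1 of the libraries of the treatment, and with no filter on low counts, and that of DTT also with TMM scaling (adjusted p from 0.0518 to 0.612).

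The remaining signals that passed lay on 1 or a pair of subgenomes. The A transcript of zma-MIR164h-p5_2ss4CG17CG_1 on 6L held 31, 37 and 23 reads in control, 255, 172 and 71 under DTT, and 170, 112 and 90 under DTT+TUDCA, and every treated library exceeded every control library. The differences were 2.39 ± 0.48 and 1.95 ± 0.35 on the log2 scale (edgeR, adjusted p = 0.000212 and 2.04e-05). Its B transcript had reads in 1 library, DTT+TUDCA replicate 1, and its D transcript in 1, DTT+TUDCA replicate 3, with 2 reads in each case, so that no change of balance could be read at this depth. The DTT call was lost without control replicate 1 or 3 (edgeR, adjusted p = 0.0665 and 0.367).

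The D transcript of atr-MIR8606-p5_2ss15TG18AG on 1L held 4, 4 and 2 reads in control, 17, 7 and 16 under DTT, and 29, 24 and 27 under DTT+TUDCA. The 3 treatments did not overlap, and the difference of DTT+TUDCA from control was 2.87 ± 0.51 (edgeR, adjusted p = 2.04e-05), while that of DTT, 1.89 ± 0.79, had an adjusted p of 0.194 in edgeR. The D transcript of aly-miR172c-3p_L-3 on 6S held 2, 6 and 2, then 13, 6 and 4, then 19, 23 and 16 reads, and was 2.41 ± 0.55 higher under DTT+TUDCA than in control (edgeR, adjusted p = 0.000883). Its A and B transcripts held the same 5 reads in all. These calls of aly-miR172c-3p_L-3, atr-MIR8606 and zma-MIR164h-p5 under DTT+TUDCA were kept under each alternative run.

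The B transcript of ath-miR847_L-2 on 2S held 2, 9 and 0 reads in control, 11, 12 and 9 under DTT, and 15, 15 and 18 under DTT+TUDCA, against 6 in all on A and on D. It was 2.02 ± 0.60 higher under DTT+TUDCA than in control (edgeR, adjusted p = 0.0163). pab-MIR11418-p3_2ss11GT18TG on 4L held the same reads on B and D, at 13, 13 and 20 in control, 13, 15 and 8 under DTT, and 26, 61 and 38 under DTT+TUDCA, and was 1.34 ± 0.40 higher under DTT+TUDCA than in control (edgeR, adjusted p = 0.0171). In both, all DTT+TUDCA libraries exceeded all control libraries. Both calls were lost with TMM scaling, with DESeq2 and with no filter on low counts. They were also lost without DTT+TUDCA replicate 2 or 3 or control replicate 1, that of ath-miR847_L-2 without control replicate 3, and that of pab-MIR11418-p3 without control replicate 2 (edgeR or DESeq2, adjusted p from 0.0581 to 0.293 over these settings). For the called triplets that were tested, none of the treatment by subgenome terms passed.

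**Figure D5:**
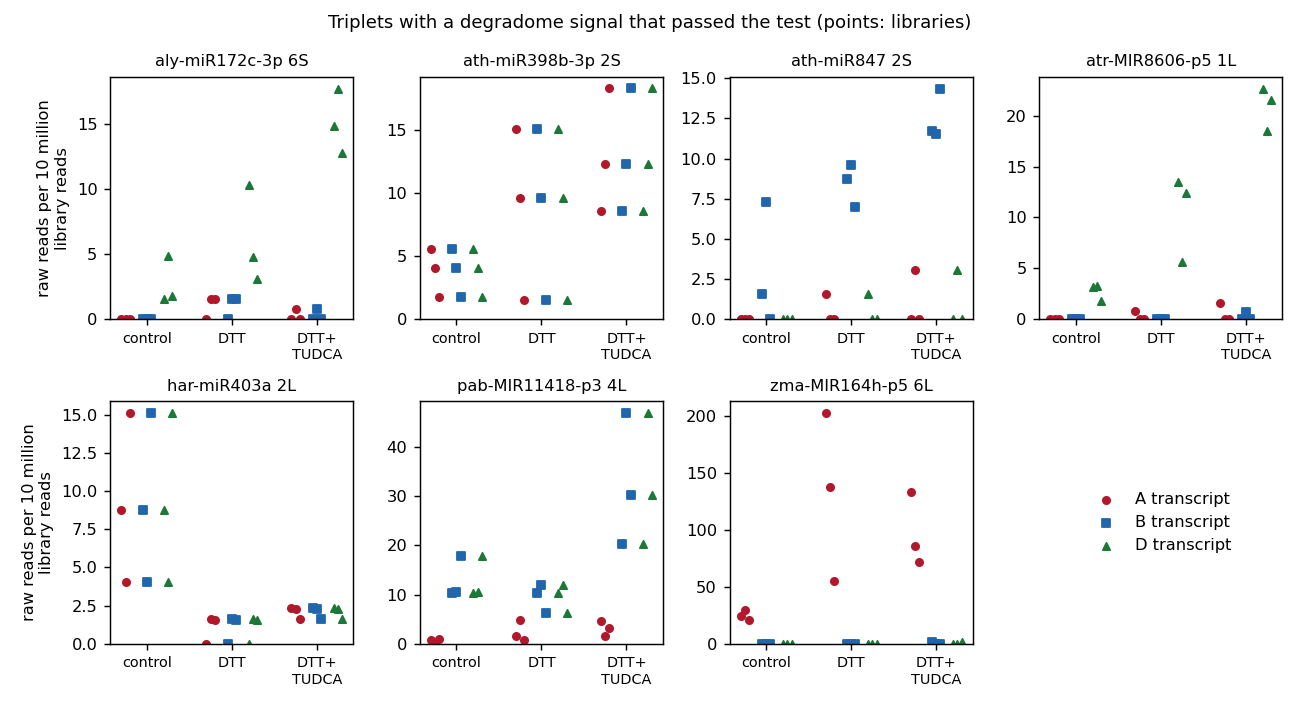
Raw reads per 10M library reads on the A (circle), B (square) and D (triangle) transcripts in each of the 3 libraries per treatment, for the 7 triplets with a signal that passed the test, each panel with its own axis from 0. The 3 transcripts coincide for ath-miR398b-3p on 2S and har-miR403a on 2L, while a single transcript carries nearly all reads for zma-MIR164h-p5, atr-MIR8606-p5, aly-miR172c-3p and ath-miR847.

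The strongest miR160 triplets did not pass in any comparison. On 1L the log2 difference was -0.28 ± 0.53 (SE) for DTT, 0.45 ± 0.28 for DTT+TUDCA against control and 0.73 ± 0.50 for DTT+TUDCA against DTT (edgeR, adjusted p = 0.824, 0.438 and 0.752). On 7L all 3 lay between -0.01 and 0.00, with SEs from 0.30 to 0.49. The unshared B transcript of 2L had -1.43 ± 0.63 and -1.12 ± 0.49 against control (edgeR, adjusted p = 0.196 and 0.149). The A transcript of aly-miR169d-5p_L-1 on 4L had 0.30 ± 0.48 and 0.29 ± 0.30 against control, and the signal of A and D of tae-miR164 on 7L had -0.16 ± 0.45 and 0.10 ± 0.31.

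By family, 25 of the 27 microRNA families listed here as conserved had a triplet, with none for miR165 and miR528. Family was read from the number in the name, and conservation of a family or its targets in wheat was not tested. The 224 distinct triplets of these families were identical in 111 and within 20% in 116, and 27 of their 65 triplets with at least 20 reads were within 20%. Of the 404 other triplets 222 were within 20%, and 29 of 73 with at least 20 reads. In DTT against control 1 of 41 signals of these families was higher and 1 lower, in DTT+TUDCA against control 3 of 43 were higher and 1 lower, and in DTT+TUDCA against DTT 0 of 46 passed. These counts lie near the 3.21%, 9.64% and 1.07% called among all signals.

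Sharing within single families is given as counts, and no difference between families was tested. All 5 miR393 triplets with at least 20 reads were within 20%, as were both of miR395 (ATP sulfurylases) and both of miR444 (MADS-box factors), whereas 0 of 16 of miR169, 2 of 8 of miR164 and 4 of 10 of miR172 were. Those of miR169 include aly-miR169d-5p_L-1 and tcc-MIR169c-p3_2ss2TG18CT on 4L and 4S, with 4A as labelled. On 4AL, 4BS and 4DS the latter held 27 reads on each, while the former held 1322, 75 and 190. Of single triplets, aof-miR166b_L-2 on 1L (HD-ZIP III factors) held 61 reads on each transcript, ata-miR395a-3p_L+1 on 5L 61, ata-miR396c-5p on 5L (growth-regulating factors) 58, ata-miR399a-3p on 1L (PHO2) 57, tae-miR159a_R-1 on 1L (GAMYB) 53, osa-MIR444c-p3_1 on 1L 29, aof-miR168a_R-1 on 2L (AGO1) 22, aly-miR408-3p_1ss20GA on 5L 9, aly-miR319b-5p on 7S 8 and sbi-miR394a_L+1_2 on 1L 2. atr-MIR397a-p3_2ss15AT18GT on 5L held 61, 60 and 49, which was within 20%. Others were shared in part. sly-MIR390a-p3_2ss7CT17GA on 6L held 78, 78 and 11, aof-MIR827-p5 on 2L held 47, 2 and 47, and aly-miR157a-5p_R+1 on 6S held 35, 3 and 35. osa-miR162a_L-3 on 4L held 7, 13 and 13, with 13 on each when the 4AS transcript took the place of 4AL.

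ata-miR395a-3p_L+1 and aof-miR166b_L-2 are shared triplets whose DTT difference did not pass. The former held 3, 1 and 0 reads on each transcript in control, 10, 11 and 6 under DTT and 5, 15 and 10 under DTT+TUDCA, and its log2 difference for DTT was 2.59 ± 0.94 (edgeR, adjusted p = 0.111). The latter held 8, 11 and 13 in control, 3, 5 and 0 under DTT and 6, 8 and 7 under DTT+TUDCA, and its difference for DTT was -2.03 ± 0.86 (edgeR, adjusted p = 0.194). In both, the DTT libraries did not overlap the control libraries.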

How the data were processed

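The authors deposited 3 tables, 1 per pair of treatments, with a line per small RNA and transcript. Per the file headers, each holds raw read counts per library, a normalized read number and a signal called TPB. From the values, the deposited normalized number behaves as an expected count (raw reads over a divisor of 1 or more), and the deposited signal is proportional to it within a library, which gave the library reads. No source used here names the mapper, transcript set or target caller. Replicate columns were assigned to treatments by their names. Raw counts were tested with edgeR 4.0.16 (R 4.3.3, with DESeq2 1.42.0 as an alternative), with library reads as library sizes. Signals needed a minimum count of 5 and a total of 10, and triplets at least 20 reads. Benjamini-Hochberg adjustment was over all signals or triplets tested, with calls at 0.05. Expected counts were rounded for 1 alternative. Lines or triplets that shared a small RNA or transcript and differed by at most 20% were merged, and 3 repeated pairs were dropped. The balance fits had the library as a block. Treatments share their control or DTT libraries between comparisons. The scripts were tested on simulated data. The members, lists and tests were chosen with earlier results of these data known. Named were the 15 triplets with most reads, the 4 with the highest share on each subgenome among those with at least 20 reads, the strongest of each conserved family and the signals that passed. The 67 triplets called unequal are otherwise given as counts. No identifier matched the RefSeq table (0), so no sequence is shown. Same-numbered libraries were checked for pairing, with correlations of their deviations from -0.079 to 0.047 over 152 signals, and were not paired.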

Additional observations from a re-analysis of the deposited data

How the results depend on the processing

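Depth limits most of these results: 248 of 628 triplets held at most 3 reads and did not enter the main test of balance. Some triplets that entered it had few reads on their weaker transcripts. These were 2 and 2 for zma-MIR164h-p5_2ss4CG17CG_1 on 6L and 1 and 1 for osa-MIR5083-p3_1ss19GT on 5L. Small changes of balance could not have been seen in such triplets. No triplet signal that passed changed direction under any alternative run. The count of triplet signals called in DTT against control was 2, and 1 with TMM factors, with DESeq2, with no filter on low counts and with the replicate block. Leaving out 1 library gave 0 to 3. In DTT+TUDCA against control it was 7, with 4 under TMM factors, 3 with DESeq2, 3 with no filter and 8 with the replicate block, and 3 to 13 with 1 library left out. The changes under TMM factors and DESeq2 and their cause were not tested. In DTT+TUDCA against DTT it was 0 throughout. The replicate block ended both calls of har-miR403a_R-3 (edgeR, adjusted p = 0.112 for DTT and 0.1003 for DTT+TUDCA). The replicate numbers are only numbers here.

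No triplet changed its balance in any comparison when 1 library was left out, except in DTT+TUDCA against DTT, where the range was 0 to 1. With every triplet in place of the distinct ones, 22 of 209 were called there, 12 copies of the triplet of aly-miR169a-5p_1ss21AT on 2S and 10 of aly-miR169d-5p_L-1 on 4L. Other alternatives of the balance test, among them the strongest against the weakest transcript, so that shared reads enter once, gave 0. Unequal reads were called in 67 of 89 triplets, in 32 of 40 with rounded normalized reads, in 138 of 209 with every triplet, in 76 of 301 with no filter on low counts, in 98 of 143 with all transcripts summed, and in 65 to 70 with 1 library left out.

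The shares of A, B and D were 43.7%, 26.5% and 29.8% with every triplet, 36.9%, 30.9% and 32.2% with raw reads, 34.7%, 32.9% and 32.3% with equal weights, 47.8%, 25.2% and 27.0% in triplets that differed by more than 20%, 36.1%, 31.4% and 32.5% without aly-miR169d-5p_L-1 on 4L, and 34.2%, 32.4% and 33.4% without that triplet and zma-MIR164h-p5_2ss4CG17CG_1. With 1 library left out they ranged from 40.0% to 41.0%, 28.9% to 29.4% and 29.9% to 30.6%. Identical triplets were 56.9% and those within 20% were 58.8% with the arms of 4A exchanged, and 35.5% and 40.6% among triplets with at least 20 reads. Over all distinct triplets as labelled the values were 52.1% and 53.8%, and with 1 library left out 50.5% to 52.0% and 52.1% to 53.3%.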
